A study of Mus musculus with 22 samples.

Results

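The nuclear genes for the subunits of the oxidative phosphorylation complexes were examined in ATAC–seq peaks of mouse epididymal adipocytes. Members were the autosomal protein-coding genes of GENCODE vM21, on the mouse build GRCm38, whose symbols begin with Ndufa, Ndufb, Ndufc, Ndufs or Ndufv and a number, with Uqcr, with Cox4 to Cox8 or with Atp5, together with Sdha, Sdhb, Sdhc and Sdhd. This gave 82 gene records with 81 symbols, of 20807 autosomal protein-coding genes. By symbol, 35 records fell to complex I, 4 to complex II, 8 to complex III, 17 to complex IV and 18 to complex V. Ndufa4 and its relative Ndufa4l2 were counted with complex I by name, although the Ndufa4 protein is known as a component of cytochrome c oxidase (complex IV). Atp5o has a second record (ENSMUSG00000116933), a readthrough annotation that overlaps the gene itself (ENSMUSG00000022956). The X-linked subunit genes and the subunits encoded by mitochondrial DNA are outside the set.

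Oxidative phosphorylation takes place at the inner mitochondrial membrane. Complex I (NADH dehydrogenase, the Nduf subunits) and complex II (succinate dehydrogenase, the Sdh subunits) pass electrons to ubiquinone, complex III (the Uqcr subunits) passes them to cytochrome c, and complex IV (cytochrome c oxidase, the Cox subunits) passes them to oxygen. Complexes I, III and IV pump protons, and complex V (ATP synthase, the Atp5 subunits) uses the gradient to make ATP. In adipocytes this chain feeds fat synthesis and breakdown, and in thermogenic fat it also feeds heat production. Several complex IV subunits exist as a broadly used isoform and an isoform known from muscle, brown fat, lung or testis.

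ATAC–seq marks open chromatin by the insertion of a transposase. All 22 libraries came from AdipoERCre x NuTRAP mice on a background that the labels spell C576BL6. In these mice a tamoxifen-inducible Cre driven by the adiponectin promoter tags adipocyte nuclei with biotin. The pull-down is thus meant to recover nuclei of cells that expressed Adipoq when tamoxifen was given, before the diets began. The 18-week-old groups were C on chow (n = 3) and H after 12 weeks of high-fat diet, HFD (n = 3). At 26 weeks of age they were CC_s on chow (n = 3) and HC, which had 12 weeks of HFD and then 8 weeks of chow (n = 3). The longer arm held CC_l on chow (n = 2) and HH after 25 weeks of HFD (n = 3) at 31 weeks of age, and CCC on chow (n = 2) and HHC with 25 weeks of HFD and then 8 weeks of chow (n = 3) at 39 weeks. Every mouse received tamoxifen. During the weight loss period HC, HHC and their controls CC_s and CCC were fed a chow that differs from the diet of C and CC_l. The short and the long arm were also 2 series of libraries, so duration and series cannot be told apart.

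Each library held between 40529 peaks (HHC replicate 2) and 60524 peaks (HC replicate 3), and a read depth per library was not given in the sources used here. HC replicate 3 and HHC replicate 3 stood apart, with a median peak maximum only 2.43 and 2.25 times the lowest maximum in the same library, against 3.67 to 8.92 times in the others. In every library all 12 adipocyte marker genes carried a promoter peak. Macrophage markers carried one at 2 to 7 of 12 genes, endothelial markers at 3 to 12 of 12 and progenitor markers at 6 to 10 of 12. The promoter signal used below is the coverage summed over the peaks that overlap 2000 bp on either side of a transcription start site, on a log2 scale. Within each library the promoters were ranked and mapped onto 1 common set of values for the 12180 strongest, which is the number of promoters with a peak in the library that had the fewest. All weaker promoters, with or without a peak, share the floor of 14.27.

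Promoter sequence was taken from RefSeq windows on GRCm38.p6, which hold 250 bases before and 50 after each start, and 63 of the 81 symbols had one. Over these 63 genes the median GC content was 57.3%, against 58.0% over 15687 autosomal protein-coding genes with a window. The median number of CpG dinucleotides was 19, against 16. Within the set the counts ran from 2 at Cox8b, the isoform of subunit 8 known from muscle and brown fat, to 43 at Atp5j, a stalk component of ATP synthase. The sequences of 6 members are shown because the results on chromatin signal turn on Uqcrfs1 and on the contrast between common and restricted isoforms. They are the 200 bases that end before the more upstream of the RefSeq and GENCODE starts, written 5′ to 3′ on the gene's strand, with each CpG in capitals. Uqcrfs1 lies at chr13:30545363-30545562 on the minus strand, Cox8a at chr19:7217617-7217816 on the minus strand, Cox8b at chr7:140900447-140900646 on the minus strand, Cox7a2 at chr9:79759879-79760078 on the minus strand, Cox7a1 at chr7:30183944-30184143 on the plus strand and Cox7b2 at chr5:71548206-71548405 on the minus strand.
Uqcrfs1: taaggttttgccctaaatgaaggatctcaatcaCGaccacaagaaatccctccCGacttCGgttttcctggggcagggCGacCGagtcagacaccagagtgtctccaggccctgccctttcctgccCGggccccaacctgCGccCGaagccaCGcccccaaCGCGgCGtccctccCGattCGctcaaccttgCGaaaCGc
Cox8a: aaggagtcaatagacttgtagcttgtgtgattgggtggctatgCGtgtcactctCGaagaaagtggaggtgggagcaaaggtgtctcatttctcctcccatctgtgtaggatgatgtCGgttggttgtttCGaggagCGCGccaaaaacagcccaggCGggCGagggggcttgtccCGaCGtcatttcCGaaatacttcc
Cox8b: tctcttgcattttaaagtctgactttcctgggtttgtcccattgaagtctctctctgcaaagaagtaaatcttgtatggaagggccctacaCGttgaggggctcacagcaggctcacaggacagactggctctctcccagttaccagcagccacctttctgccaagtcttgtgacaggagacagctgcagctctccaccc
Cox7a2: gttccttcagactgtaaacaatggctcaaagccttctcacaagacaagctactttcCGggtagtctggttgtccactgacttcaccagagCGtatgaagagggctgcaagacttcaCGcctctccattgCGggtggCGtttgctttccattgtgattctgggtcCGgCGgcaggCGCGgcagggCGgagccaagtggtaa
Cox7a1: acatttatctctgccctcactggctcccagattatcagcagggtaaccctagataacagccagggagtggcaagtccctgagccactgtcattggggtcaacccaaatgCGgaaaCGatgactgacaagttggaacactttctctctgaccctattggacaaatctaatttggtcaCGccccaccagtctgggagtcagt
Cox7b2: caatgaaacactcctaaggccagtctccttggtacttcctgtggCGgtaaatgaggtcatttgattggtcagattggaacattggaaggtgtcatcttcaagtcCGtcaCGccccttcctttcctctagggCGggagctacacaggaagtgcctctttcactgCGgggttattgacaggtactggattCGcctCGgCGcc
In these stretches Uqcrfs1 had 16 CpG, the common isoforms Cox8a and Cox7a2 had 11 and 10, and the restricted isoforms Cox8b and Cox7a1 had 1 and 3. Cox7b2, an isoform known from testis, had 8.

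The windows were also searched on both strands for the core letters of factors known to bind promoters of mitochondrial genes. The NRF1 core GCGCANGCG was found at 20 of 63 members (31.8%), against 10.2% of all genes with a window. The ETS core CCGGAAG, which GABP binds, was found at 16 members (25.4%, against 13.6%). The YY1 core AAGATGGC was found at 9 (14.3%, against 3.63%), and the core of the oestrogen-related receptors, CAAGGTCA, at 4 (6.35%, against 1.51%). At least 1 of these 4 cores stood in the windows of 37 members (58.7%, against 25.1%). Of the general promoter motifs, GGGCGG, bound by SP1, was at 25 members (39.7%, against 51.7%), CCAAT at 27 (42.9%, against 41.7%) and TATAAA at 7 (11.1%, against 14.4%). Matches of different motifs shared bases in 1 member's windows. Windows of neighbouring genes that share a promoter are not independent, and a match is only a description of the letters. As examples with the matched core in capitals, Cox6a1 (chr5:115348982-115349181 on the minus strand) and Ndufs5 (chr4:123718203-123718402 on the minus strand) are shown for NRF1, Uqcr11 (chr10:80406831-80407030 on the minus strand) for ETS and Atp5g3 (chr2:73911327-73911526 on the minus strand) for the oestrogen-related receptors.
Cox6a1: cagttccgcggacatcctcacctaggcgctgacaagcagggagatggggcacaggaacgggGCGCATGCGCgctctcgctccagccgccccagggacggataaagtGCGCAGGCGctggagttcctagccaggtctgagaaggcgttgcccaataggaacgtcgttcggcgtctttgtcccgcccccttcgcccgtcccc
Ndufs5: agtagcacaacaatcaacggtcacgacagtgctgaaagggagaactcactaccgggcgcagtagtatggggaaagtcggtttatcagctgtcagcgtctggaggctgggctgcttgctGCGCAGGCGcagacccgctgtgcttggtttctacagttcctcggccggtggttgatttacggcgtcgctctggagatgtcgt
Uqcr11: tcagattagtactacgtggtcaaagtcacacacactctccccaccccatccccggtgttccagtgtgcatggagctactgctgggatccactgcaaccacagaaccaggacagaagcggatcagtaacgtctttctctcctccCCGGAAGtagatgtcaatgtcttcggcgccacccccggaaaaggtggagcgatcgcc
Atp5g3: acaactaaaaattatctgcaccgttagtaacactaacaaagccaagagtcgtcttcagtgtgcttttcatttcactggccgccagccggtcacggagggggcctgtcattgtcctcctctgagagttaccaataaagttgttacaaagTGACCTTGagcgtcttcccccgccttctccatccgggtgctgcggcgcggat
In the Cox6a1 stretch the first capital block holds 1 match on each strand, which overlap.

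In adipocytes the promoters of the set were open almost throughout. A peak lay at the promoter in all 22 libraries for 72 of 82 members (87.8%), against 45.1% of all genes. It was absent from every library for 3 members (3.66%), against 20.6% of all genes. All 35 complex I, 4 complex II and 8 complex III members were open in every library, as were 17 of 18 complex V members, whereas complex IV had 8 of 17. Per library, between 74 (HHC replicate 3) and 79 members had a peak. The level was middling rather than high. The members' median promoter signal was 16.38 against 15.17 over all genes, at percentile 73.2 of all genes, but at percentile 44.9 among the 9384 genes open in every library.

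**Figure D1:**
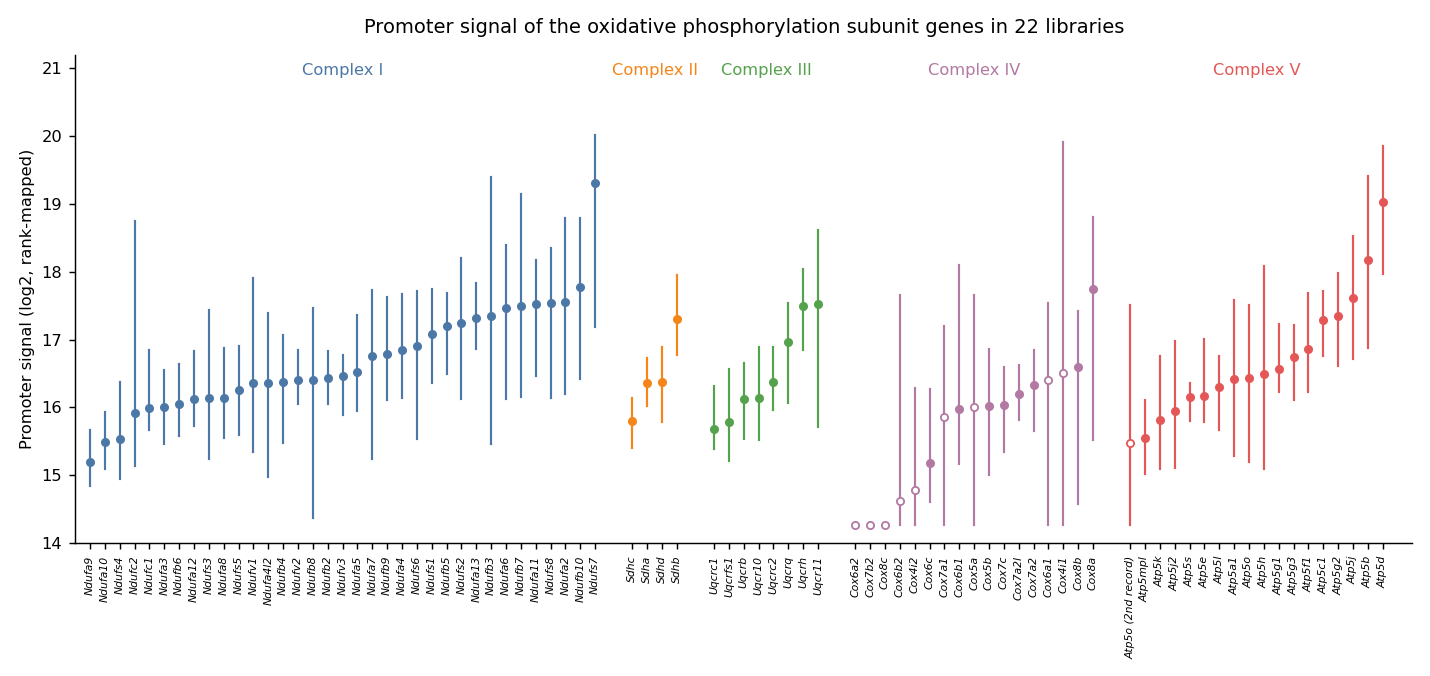
Promoter signal (log2, vertical axis) of each of the 82 members, ordered within complexes I to V. Points are means over 22 libraries, lines run from the lowest to the highest library, and open points mark the 10 members without a peak in at least 1 library. Most members sit between 15 and 18, Ndufs7 and Atp5d stand above 19, and the members at the floor of 14.27 are all in complex IV.

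The strongest promoter was that of Ndufs7, an iron–sulfur subunit of complex I, with a mean of 19.30 ± 0.80 (SD, n = 22). Next were subunits of ATP synthase, the delta subunit Atp5d at 19.03 ± 0.56 and the catalytic beta subunit Atp5b at 18.18 ± 0.70. Among members open in all libraries, the weakest were Cox6c at 15.18 ± 0.33, Ndufa9 at 15.20 ± 0.22 and Ndufa10 at 15.49 ± 0.22. The level sums coverage over the whole peak, so a wider peak gives a higher value. The median peak at Ndufs7 spanned 45355 bp and at Atp5d 23270 bp, and these peaks reached another gene's promoter in 19 and 22 libraries, against 2201 bp at Ndufa9, whose peak reached none. At Atp5d the peak's highest point lay a median of 7133 bp downstream of the nearest start site, so its value is not that of the start site alone.

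At most members the accessible point sat on the start site itself. The median distance of the peak maximum from the nearest start ranged over libraries from −26.5 bp (upstream) to 3.5 bp. It lay within 250 bp for 74.7 to 85.1% of members with a peak, against 57.6 to 65.3% of all promoters with a peak. The peak covered a start site at 93.5 to 100% of members, against 80.3 to 93.8%. Divergent pairs were frequent: 18 members (21.95%) had another coding gene on the opposite strand starting within 1000 bp upstream, against 6.97% of all genes. Examples were Ndufa7 with the ribosomal protein gene Rps28 at 10 bp, Ndufb9 with Tatdn1 at 18 bp, Sdha with Ccdc127 at 29 bp and Sdhd with Timm8b, a mitochondrial import factor, at 98 bp. In 38 members the peak also overlapped another gene's promoter in at least 11 libraries, so the signal of those members cannot be assigned to 1 gene.

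Members also differed in how steady they were. The SD between libraries of the same group had a median of 0.32 over the 72 members open in all libraries (log2). The steadiest open promoters were Atp5s at 0.13, Cox7a2l, which takes part in joining complexes III and IV, at 0.16, and Ndufv2 at 0.16. The least steady were the second Atp5o record at 1.26, Cox4i1 at 1.07, Ndufc2 at 1.01 and Cox8a at 1.00.

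Ndufv1, the NADH-binding subunit of complex I, had 15.99, 16.35 and 17.79 in C and 15.46, 15.34 and 16.62 in H. It had 16.28, 17.91 and 17.33 in CC_s and 15.99, 16.31 and 15.85 in HC. In the longer arm it had 16.10 and 16.24 in CC_l, 15.67, 16.06 and 16.03 in HH, 16.69 and 16.35 in CCC, and 16.35, 16.73 and 16.34 in HHC. The groups overlapped in 3 of the 4 pairs, and HH lay below CC_l. Ndufs1, the largest iron–sulfur subunit of complex I, ranged from 16.36 to 17.74 with no separation of H from C (16.52, 17.37 and 16.98 against 17.71, 17.36 and 16.81).

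Sdha and Sdhb are the flavin and iron–sulfur subunits of complex II. Sdha had 16.52, 16.49 and 16.69 in C and 16.38, 16.37 and 16.34 in H, and stayed between 16.03 and 16.73 in all 22 libraries. Sdhb stayed between 16.77 and 17.96, with 17.32, 17.36 and 17.17 in C and 17.26, 17.23 and 17.35 in H. Sdha was below all C libraries in the 3 H libraries, by 0.21 on average (adjusted p = 0.443), and Sdhb overlapped. Uqcrc1, a core subunit of complex III, had 15.45, 15.61 and 15.62 in C and 15.60, 15.39 and 15.54 in H, and its highest value, 16.31, was in HC replicate 3.

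Among the ATP synthase core subunits, Atp5b had 18.57, 18.23 and 18.18 in C, 18.58, 18.60 and 18.62 in H, 19.21 and 18.44 in CC_l and 17.49, 17.25 and 18.49 in HH. It ranged from 16.87 to 19.42 within CC_s alone. Atp5a1, the alpha subunit, had 16.25, 16.38 and 17.41 in C and 16.04, 16.09 and 16.21 in H, so that all H libraries were below all C libraries, and 16.11 and 16.26 in CC_l against 15.29, 16.30 and 16.13 in HH. Cox5a, a nuclear-encoded subunit of complex IV, had 15.68, 16.13 and 16.13 in C and 15.93, 16.06 and 15.80 in H, and was at the floor only in HHC replicate 3, where no peak was called.

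The restricted isoforms of complex IV did not behave as 1 class. Cox6a2 (muscle), Cox7b2 (testis) and Cox8c (testis) had no promoter peak in any library, while their common counterpart for subunit 6a, Cox6a1, had one in 21 of 22. Cox8b and Ndufa4l2, a relative of Ndufa4 known as hypoxia-induced, were open in all 22 libraries, and Cox7a1, known from muscle and brown fat, in 21. Cox6b2 (testis) had a peak in 19 libraries, at or just above the floor in most of them, and Cox4i2, the lung and hypoxia isoform of subunit 4, in 14. Cox8b, with 2 CpG in its window, averaged 16.59 ± 0.54 (SD, n = 22) against 17.74 ± 0.96 at Cox8a, and Cox7a1 averaged 15.85 ± 0.70 against 16.33 ± 0.32 at Cox7a2. Cox6b2 averaged 14.63 ± 0.73 against 15.98 ± 0.59 at Cox6b1, and Ndufa4l2 averaged 16.36 ± 0.59 against 16.85 ± 0.35 at Ndufa4. At Cox8b and Ndufa4l2 the maximum of the peak lay at a median of −1975 and −1963 bp from the start (negative is upstream), whereas at Cox7a1 it lay at −15 bp. The promoter of Ucp1, the uncoupling protein of brown and beige fat, held a peak in 2 libraries and was at the floor in all.

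**Figure D2:**
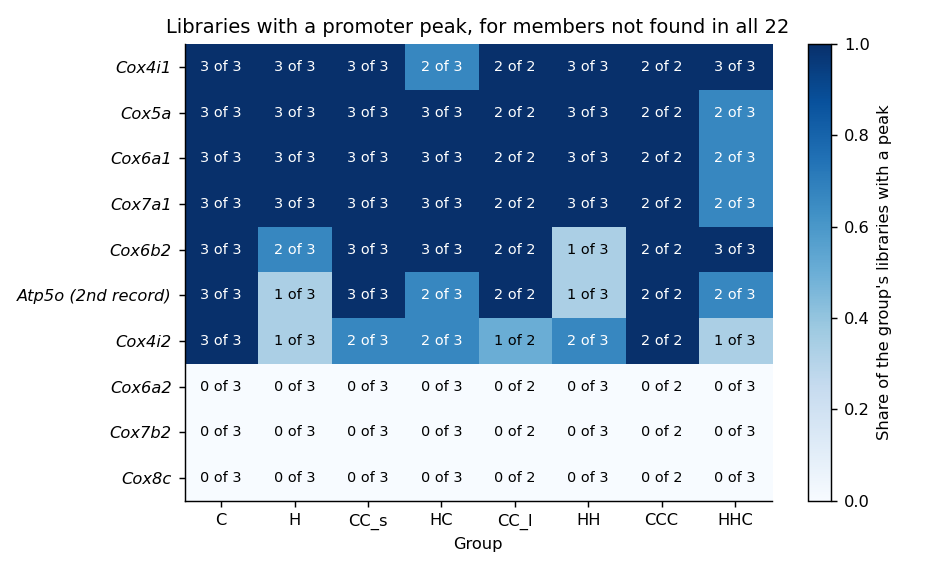
Number of libraries with a promoter peak in each of the 8 groups, for the 10 members without a peak in at least 1 of 22 libraries. Cox6a2, Cox7b2 and Cox8c have none, Cox4i2 has 3 of 3 in C and 1 of 3 in H, and Cox6b2 has 1 of 3 in HH.

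Of the other members without a peak somewhere, Cox4i1, Cox5a, Cox6a1 and Cox7a1 each missed 1 library, which was HC replicate 3 for Cox4i1 and HHC replicate 3 for the other 3, and these are the libraries that stood apart. The second Atp5o record missed 6 libraries and shared its peak with another promoter in 8. Cox4i2 was found in 3 of 3 C, 1 of 3 H, 2 of 3 CC_s, 2 of 3 HC, 1 of 2 CC_l, 2 of 3 HH, 2 of 2 CCC and 1 of 3 HHC libraries.

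The obese groups were compared with their age-matched controls first, to ask whether HFD changed chromatin signal at these promoters. After 12 weeks of HFD, 2 of 79 members tested had an adjusted p under 0.05 (limma with Benjamini–Hochberg adjustment over all 12428 promoters tested), and both were lower in H. That is 2.53% of members, against 2.35% of all promoters. At an unadjusted p under 0.05, 6 members were higher (7.59%, against 12.9% of all promoters) and 7 lower (8.86%, against 8.37%). The shares called were thus close to, or for higher signal below, the background. Of the 2 members called, 1 (Cox4i2) passed the filter on low values only through C, the group where it is high, and it is also among the 7 lower. Of the 292 promoters called, 129 likewise had too few libraries off the floor in the lower group for that group to pass by itself. The median difference over the members was −0.16 (log2), against 0.03 over all promoters, and 53 of 79 were below 0 (67.1%, against 47.0%). By the peak maximum alone the median was −0.10, against 0.01.

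Cox4i2 was 1 of the 2 members counted as called. It had 15.87, 15.82 and 16.28 in C, and all 3 H libraries were at the floor. H replicates 1 and 2 had no peak there, and the peak of H replicate 3 was too weak to leave the floor. Because it entered the test only through C, it had to differ, and neither a p nor a size is given. In C the peak maximum lay 2606, 3448 and 11551 bp downstream of the start, so the signal was not centred on the promoter. It was not called when only the peak maximum was used. In the other groups its values overlapped: 14.27 and 15.32 in CC_l against 14.27, 14.29 and 14.27 in HH.

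Ndufb9, an accessory subunit of complex I, was lower in H by 1.11 (SE 0.20, adjusted p = 0.0483). It had 17.03, 17.47 and 17.64 in C against 16.31, 16.28 and 16.22 in H, so the groups did not overlap. Its peak was shared with the divergent neighbour Tatdn1 in all 22 libraries. It was 15016, 22113 and 27873 bp wide in C and 6934, 7006 and 5651 bp wide in H, with the maximum within 10 bp of the start in all 6. By the peak maximum alone the difference was −0.30 (95% interval −0.63 to 0.04, adjusted p = 0.309). The call was lost in 5 of the 6 fits that left out 1 library. After 25 weeks the order was the other way, with 16.65, 16.78 and 16.68 in HH against 16.36 and 16.11 in CC_l.

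Uqcrfs1, the Rieske iron–sulfur protein through which complex III passes electrons to cytochrome c1, was next, with an adjusted p of 0.0526 in H against C and a difference of −0.97 (SE 0.18). It passed in this pair with the 30000 strongest peaks (adjusted p = 0.0464) and with 1 fit of all groups (0.0339), and its adjusted p in limma over all alternatives ran from 0.0339 to 0.44. It had 16.57, 16.47 and 16.19 in C, 15.58, 15.51 and 15.20 in H, 16.08 and 16.27 in CC_l, and 15.34, 15.47 and 15.27 in HH. All 6 obese libraries were below all 5 of their controls. Averaged over both durations it was the one member called, lower in the obese groups by 0.90 (SE 0.16, 95% interval −1.23 to −0.56, adjusted p = 0.00678 by limma over 13553 promoters). The difference between the durations was −0.16 (SE 0.32, 95% interval −0.83 to 0.52, adjusted p = 1 in limma).

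In the same average, 1 member in 79 was 1.27%, against 2.28% of all promoters. At an unadjusted p under 0.05, 1 member was higher (1.27%, against 8.62%) and 8 were lower (10.1%, against 7.25%). The 8 were Uqcrfs1, Cox4i2, Ndufa6, Atp5h, Ndufa12, Uqcr11, Cox5b and Cox7a2l, and the higher one was Atp5j2. Cox4i2 again rests on C, where alone it left the floor in every library, and all but Uqcrfs1 and Cox4i2 were named after their values were seen. The median over the members was −0.17, against 0.02 over all promoters, and by the peak maximum it was −0.062, against 0.0064.

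The separation at Uqcrfs1 was in the summed signal and the width of the peak, and was smaller in its height. In C the peak was 9418, 8515 and 8514 bp wide and in H 4174, 3024 and 2631 bp. In CC_l it was 3489 and 7050 bp and in HH 1439, 3130 and 2255 bp. The maximum stayed within 70 bp of the start in all 11 of these libraries, and in no library did the peak reach another gene's promoter. By the maximum alone, the values were 7.372, 7.214 and 7.150 in C against 7.119, 6.998 and 7.120 in H, and 7.619 and 7.202 in CC_l against 7.280, 6.989 and 7.116 in HH (log2). The difference by maximum over both durations was −0.22 (95% interval −0.45 to −0.00, adjusted p = 0.358). Over all promoters the median width was 4296 to 5488 bp in C and 3961 to 4419 bp in H, and 2921 to 3846 bp in CC_l and 2294 to 4383 bp in HH, so the groups overlapped in both arms. The median peak maximum was 6.82 to 8.92 times the lowest in C and 4.70 to 6.40 times in H, and 4.67 to 7.30 times in CC_l and 3.75 to 6.20 times in HH. The part of these in the result was not tested.

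**Figure D3:**
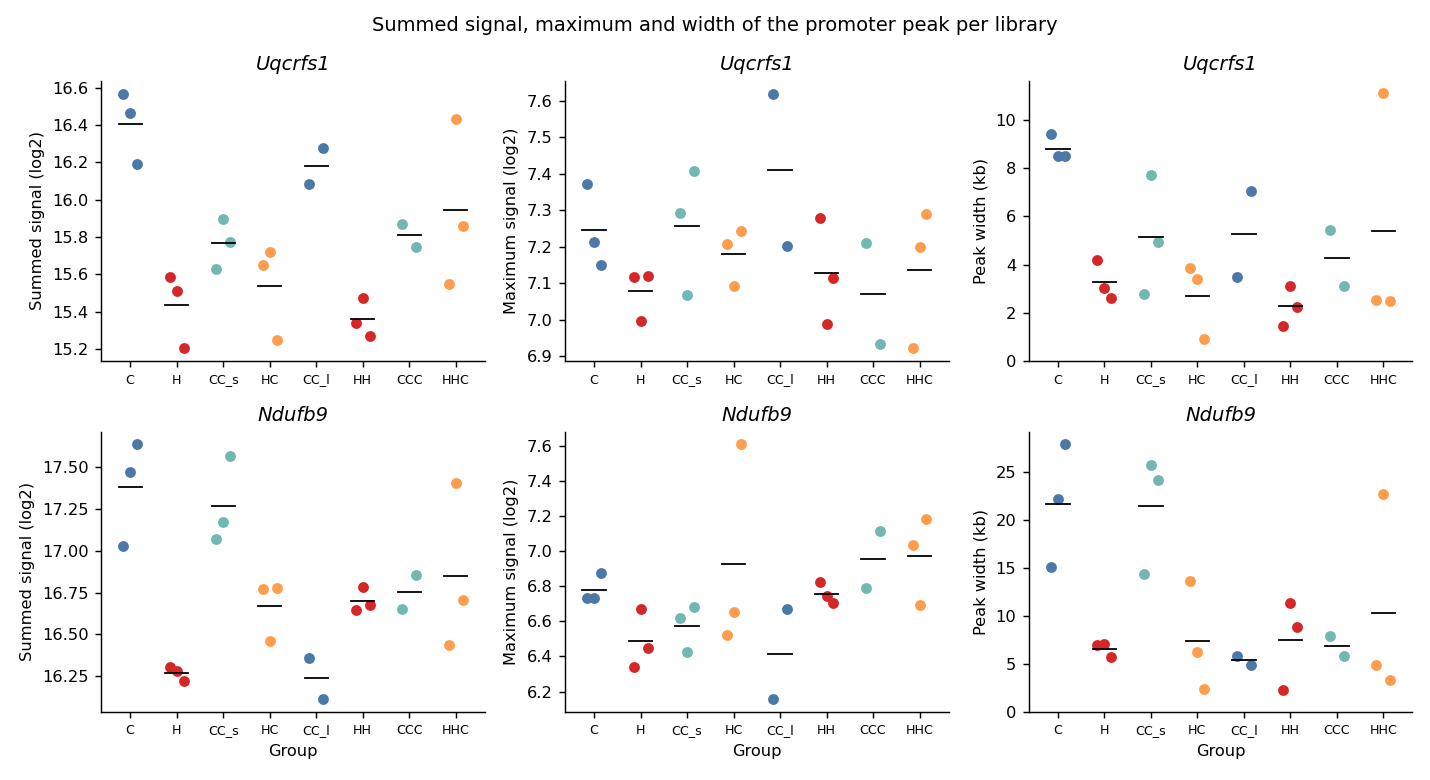
Summed signal (log2), maximum signal (log2) and width (kb) of the promoter peak of Uqcrfs1 (upper row) and Ndufb9 (lower row) in each library, by group, with lines at group means. For Uqcrfs1 the summed signal of the 6 H and HH libraries lies below that of the 5 C and CC_l libraries, while the maxima do not overlap between H and C but overlap between HH and CC_l.

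Across the weight loss groups Uqcrfs1 did not keep this separation. It had 15.63, 15.90 and 15.77 in CC_s against 15.65, 15.72 and 15.25 in HC, and 15.87 and 15.75 in CCC against 15.55, 16.43 and 15.86 in HHC. The mean difference was −0.05 (95% interval −0.38 to 0.29), and the chow groups CC_s and CCC averaged 15.77 and 15.81, against 16.41 in the younger C and 16.18 in the younger CC_l, which had another chow.

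After 25 weeks of HFD, 0 of 78 members were called in HH against CC_l by limma, against 0.086% of 12787 promoters. Without adjustment, at a p under 0.05, 0 were higher (against 3.57%) and 2 were lower (2.56%, against 3.79%). These were Uqcrfs1, by 0.82 (SE 0.20, adjusted p = 0.387), and Atp5o, which links the head and stalk of ATP synthase, with 15.19, 16.00 and 15.95 in HH against 16.74 and 16.78 in CC_l. Next by p was Atp5b, at −1.08 (95% interval −2.25 to 0.09). The 3 with the smallest p in the other direction were Ndufb9 at 0.46 (SE 0.22), Ndufs3 at 0.82 (SE 0.45) and Atp5k at 0.72 (SE 0.41). The members' median was −0.13, against 0.00 over all promoters, and 57 of 78 were below 0 (73.1%, against 49.6%). By the peak maximum the median was −0.0122, against 0.0018.

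**Figure D4:**
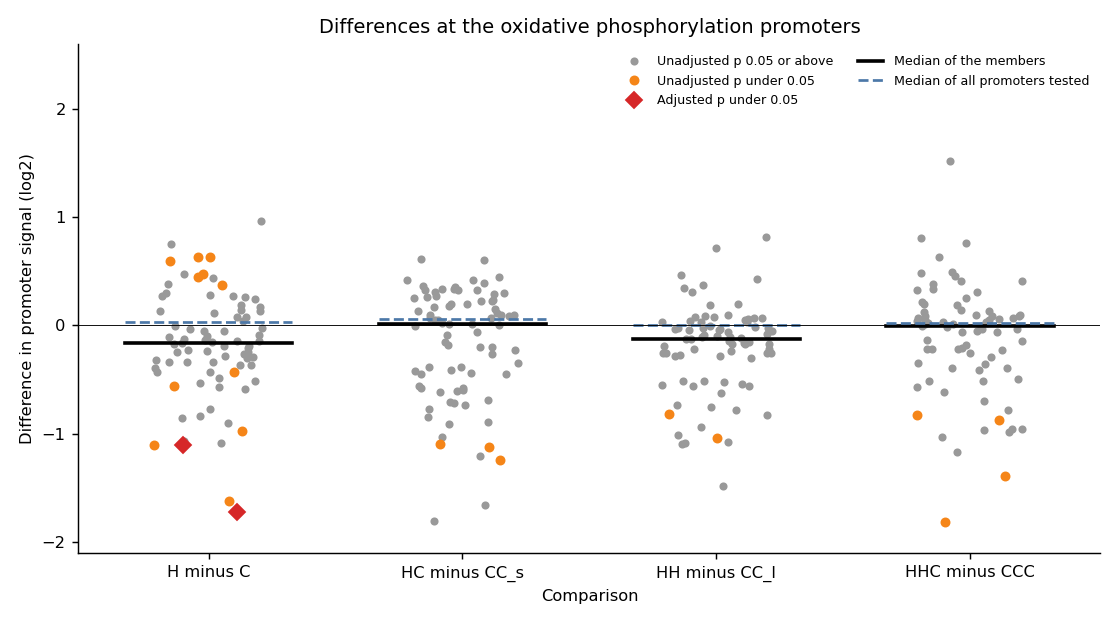
Difference in promoter signal (log2, vertical axis) at each tested member in the 4 comparisons of an HFD-fed group minus its control. Black lines are medians of the members and dashed lines medians of all promoters tested; diamonds mark the 2 members with an adjusted p under 0.05, both in H minus C, where the members' median is −0.16 and that of all promoters 0.03.

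By complex, the H minus C medians were −0.19 for complex I (35 tested), −0.18 for complex II (4), −0.08 for complex III (8), −0.13 for complex IV (14) and −0.25 for complex V (18). The 7 core subunits of complex I were all below 0, with a median of −0.40 and none at an unadjusted p under 0.05. Atp5h, a stalk subunit of ATP synthase, was at −1.62 (SE 0.37, adjusted p = 0.0808). It had 16.14, 17.43 and 17.32 in C against 15.09, 15.58 and 15.35 in H. By the peak maximum it had 6.711, 6.891 and 6.879 in C against 6.607, 6.628 and 6.626 in H. On the other side Ndufa4l2 was at 0.63 (SE 0.15, adjusted p = 0.0902), with 16.67, 16.89 and 16.69 in H against 16.02, 16.23 and 16.10 in C. Ndufa11 and Ndufs5, accessory subunits of complex I, were at 0.60 (SE 0.18) and 0.63 (SE 0.22). Cox8b was at 0.38 (SE 0.15, adjusted p = 0.22). Cox7a1 was at 0.75 (SE 0.33, adjusted p = 0.257), with an interval of −0.04 to 1.54 and with 16.35, 16.21 and 16.36 in H against 14.81, 15.80 and 16.06 in C. None of these 6 passed the adjusted threshold, and Atp5h, Ndufa11 and Ndufs5 were singled out here after their values were seen.

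In the longer arm these isoforms were not separated. Ndufa4l2 had 17.08 and 16.17 in CC_l against 16.12, 16.51 and 16.79 in HH, and Cox8b had 17.05 and 16.60 against 16.92, 16.61 and 16.74. For Ndufa4l2 the difference between durations was 0.78 (95% interval −0.44 to 2.01), and for Cox8b it was 0.44 (95% interval −0.94 to 1.82), with an adjusted p of 1 for each in limma. Cox4i1, the common isoform of subunit 4, was below its control in mean in every pair, at −0.52 in H, −0.94 in HH, −1.66 in HC and −0.51 in HHC, with standard errors of 0.27, 0.61, 1.10 and 0.67. All 4 intervals include 0. Without HC replicate 3, where it had no peak, the HC value was −0.80, and without HHC replicate 3 the HHC value was 0.12. The −0.80 rests on CC_s replicate 2, at 19.91, where the peak was 147359 bp wide with its maximum at −78868 bp from the start. CC_s replicates 1 and 3 had 15.99 and 17.05, and HC replicates 1 and 2, between them, had 16.87 and 16.84. In HH it had 14.87, 16.79 and 16.02 against 17.27 and 16.38 in CC_l.

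**Figure D5:**
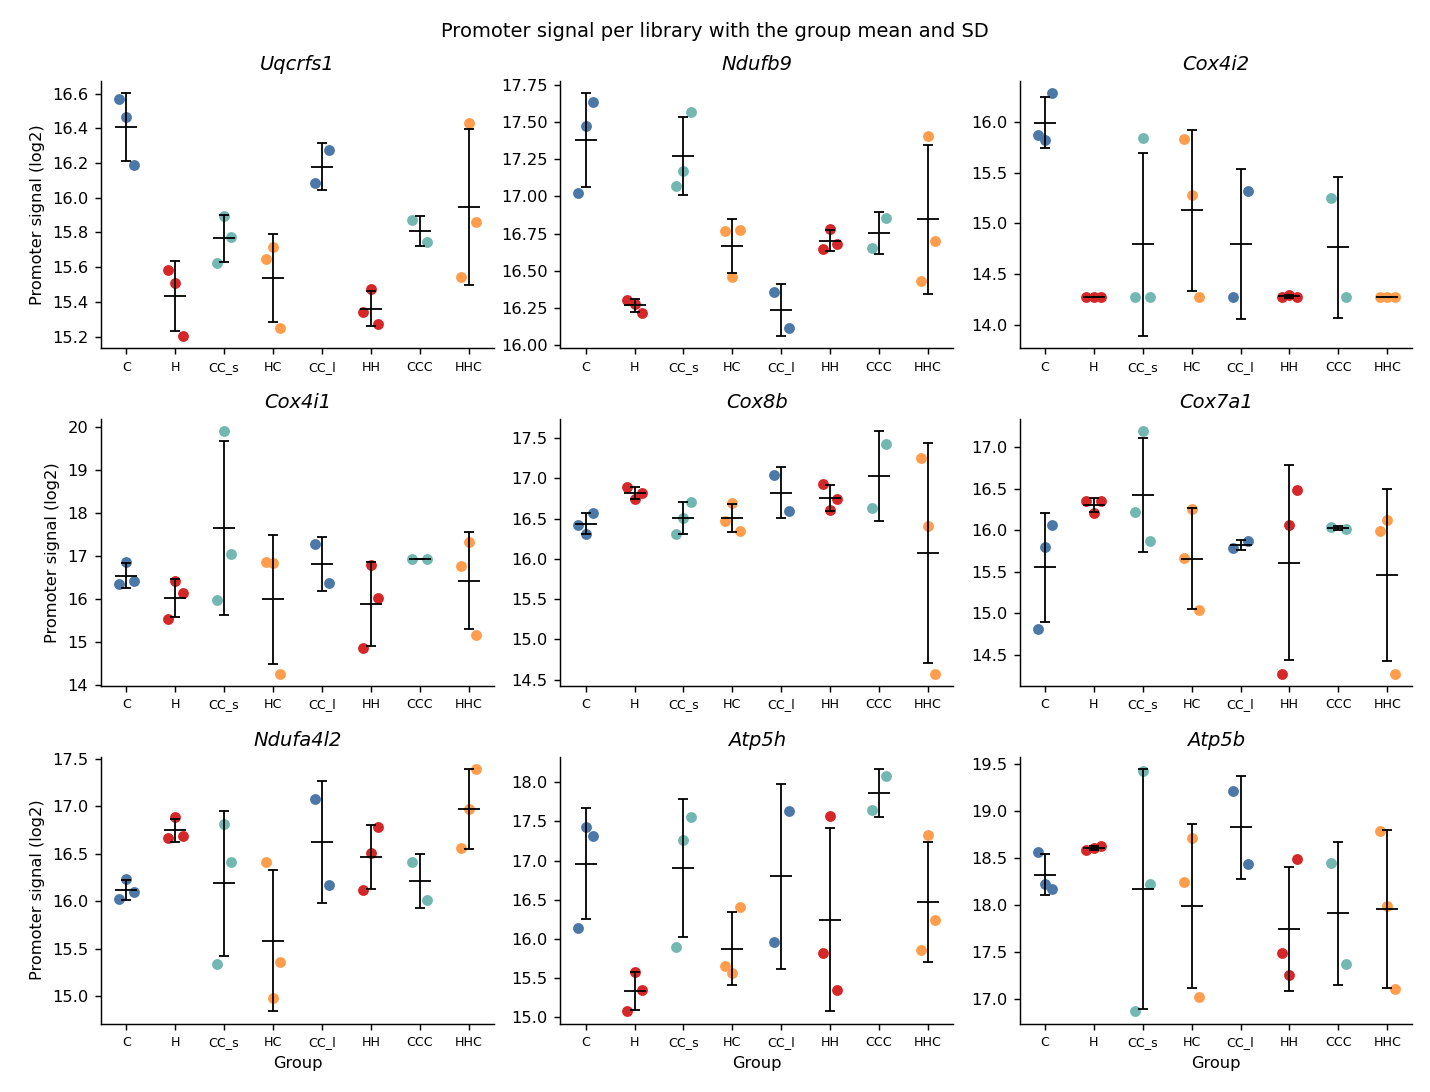
Promoter signal (log2, vertical axis) of 9 members in each library, by group. Points are libraries, and black bars give the group mean and SD. Uqcrfs1 lies lower in H and HH than in C and CC_l, Cox4i2 is at the floor of 14.27 in all H libraries, and Cox4i1 spans 15.99 to 19.91 within CC_s.

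Marker genes of 5 cell types were also compared. In H against C, 1 of 12 adipocyte markers tested was called higher and 1 of 4 macrophage markers lower by limma, against 2.35% of all promoters, and 0 of 3 endothelial, 6 progenitor and 1 mesothelial markers were called. At an unadjusted p under 0.05, 6 adipocyte (50.0%) and 3 endothelial markers were higher, against 12.9%, and 1 macrophage, 2 progenitor and 1 mesothelial marker were lower, against 8.37%. In HH against CC_l none of the 5 lists had a call in limma, against 0.086%. Before adjustment 4 of 12 adipocyte (33.3%) and 1 of 3 endothelial markers were higher, against 3.57%, and 1 of 3 macrophage, 1 of 9 progenitor and 1 of 2 mesothelial markers were lower, against 3.79%. The summed endothelial, macrophage and progenitor signals overlapped between CC_l and HH. Mesothelial markers carried a peak at 2 to 4 of 6 genes in C and 2 of 6 in CC_l, and at 0 to 1 of 6 in H and in HH. Their summed signal was 86.13 to 89.33 in C and 86.57 to 89.49 in CC_l, against 85.63 to 85.73 in H and 85.63 to 85.64 in HH (log2 summed over 6 genes), and Upk1b had no peak in any library. In H and HH the mesothelial markers thus lay at or just above the floor. Those counted as lower could differ in 1 direction only, so their counts are no support. Endothelial markers summed to 177.9 to 179.2 in C, 179.8 to 182.0 in H, 178.0 to 180.2 in CC_l and 179.9 to 199.7 in HH over 12 genes, of which none lacked a peak in all libraries. Macrophage markers summed to 178.4 to 180.8 in C, 175.0 to 177.7 in H, 176.1 to 176.7 in CC_l and 175.5 to 177.7 in HH, with Fcgr1 at 0 throughout. Adipocyte markers summed to 242.0 to 242.3 in C, 246.3 to 247.3 in H, 241.3 to 242.7 in CC_l and 243.7 to 249.4 in HH. Progenitor markers summed to 179.3 to 182.8 in C and 178.0 to 179.8 in H, whereas they summed to 177.5 to 181.5 in CC_l and 179.2 to 187.4 in HH. The part of these values in the differences at the members was not tested. In bulk nuclei, fewer nuclei of a type and less signal per nucleus cannot be told apart.

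Weight loss was compared next, to ask whether a difference remained after 8 weeks on chow. In HC against CC_s, 0 of 79 members were called by limma, against 0.0644% of 12430 promoters. At an unadjusted p under 0.05, 0 members were higher (against 1.9%) and 3 lower (3.8%, against 4.25%), all of them complex I subunits. Ndufb10 was at −1.10 (SE 0.40), with 17.23, 17.66 and 16.77 in HC against 17.84, 18.33 and 18.80 in CC_s. Its peak maximum lay 4530 to 4531 bp downstream of the start in these libraries, except in HC replicate 3, where it lay at 51 bp. Its value is thus not that of the start site alone, and without HC replicate 3 the difference was −0.88. Ndufv1 was at −1.12 (SE 0.44). Ndufs7 was at −1.24 (SE 0.51), with 18.50, 19.44 and 17.38 against 19.88, 19.47 and 19.69, where the lowest value came from HC replicate 3, without which the difference was −0.71. The adjusted p was 0.758 for each. The smallest p among members higher in HC were those of Cox6c at 0.60 (SE 0.30), Atp5j at 0.61 (SE 0.44) and Uqcrc1 at 0.33 (SE 0.26), which became 0.33, 0.34 and 0.14 without HC replicate 3. The members' median was 0.01, against 0.06.

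In HHC against CCC, 0 of 78 members were called by limma, as were 0% of 12896 promoters. Before adjustment, at a p under 0.05, 0 members were higher (against 1.38%) and 4 lower (5.13%, against 2.85%). One of the 4 was the second Atp5o record, with 14.36, 14.27 and 14.27 in HHC against 16.62 and 15.62 in CCC, which passed the filter only through CCC, as did 117 of the 367 promoters counted as lower. The others were Atp5g2, Atp5j2 and Atp5h, all subunits of ATP synthase. Atp5g2, which encodes the membrane ring subunit c, had 17.02, 16.96 and 17.10 against 17.81 and 17.99 (−0.87, SE 0.29). Atp5j2 had 15.69, 15.70 and 15.11 against 16.23 and 16.43 (−0.83, SE 0.30). Atp5h was at −1.39 (SE 0.52), with its peak maximum 5155 and 5231 bp downstream of the start in CCC and at −74, −26 and 122 bp in HHC. The adjusted p of each of these 3 was 0.914. At the gene's own start, Atp5o had 17.19, 16.47 and 15.37 in HHC and 16.62 and 15.87 in CCC, which overlap. The smallest p on the higher side were those of Ndufa4l2 at 0.76 (SE 0.37), Ndufa5 at 0.64 (SE 0.40), which became 0.34 without HHC replicate 3, and Cox6b2, with 14.69, 17.66 and 15.09 in HHC against 14.27 and 14.32 in CCC. Cox6b2 passed the filter only through HHC, so no size is given. The members' median was −0.00, against 0.02. Mesothelial markers summed to 88.77 to 92.36 in HHC against 85.95 to 86.84 in CCC, with a peak at 2 to 5 and 1 to 3 of 6 genes, and to 88.69 to 93.48 in HC against 86.97 to 91.32 in CC_s. Progenitor markers summed to 180.8 to 189.9 in HHC against 179.1 to 183.6 in CCC, and adipocyte markers to 228.7 to 246.1 against 241.0 to 242.5. In HC against CC_s progenitor markers summed to 178.95 to 187.08 against 179.3 to 180.4, and adipocyte markers to 238.2 to 245.7 against 239.7 to 245.9. Endothelial markers summed to 178.0 to 189.3 in HHC against 177.6 to 183.3 in CCC and to 179.05 to 186.39 in HC against 177.9 to 178.3 in CC_s. Macrophage markers summed to 176.9 to 181.8 against 176.7 to 177.9 and to 175.2 to 181.9 against 177.0 to 179.4 in the same pairs. No marker of the 5 lists was called in either pair (limma). At an unadjusted p under 0.05, 2 of 12 adipocyte and 1 of 7 progenitor markers were higher in HC (against 1.9%). In the same pair 1 of 12 adipocyte, 1 of 3 macrophage and 1 of 7 progenitor markers were lower (against 4.25%). In HHC 1 of 9 progenitor markers was lower (against 2.85%). The part of these marker values in the differences at the members was not tested.

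Averaged over both durations of HFD, 0 of 79 members were called after weight loss (limma), against 0.151% of 13881 promoters. At an unadjusted p under 0.05, 2 were higher (2.53%, against 7.49%) and 6 lower (7.59%, against 7.94%). Atp5g2 had the smallest p, at −0.63 (SE 0.20, 95% interval −1.04 to −0.22, adjusted p = 0.175), with 17.33, 17.24 and 16.98 in HC against 17.82, 17.34 and 17.54 in CC_s. In neither pair did its libraries overlap with those of the control in summed signal, but by the peak maximum they overlapped in both. The maxima were 7.194, 6.965 and 6.966 in HC against 6.969, 7.206 and 7.077 in CC_s. In HHC they were 7.217, 6.974 and 6.865 against 6.856 and 7.205 in CCC. Atp5j2 was at −0.52 (SE 0.18) and Atp5h at −1.21 (SE 0.44). On the higher side were Ndufa5 at 0.47 (SE 0.21) and Cox6b2, for which no size is given because in each pair too few control libraries left the floor to pass the filter. They were followed by Ndufa10 at 0.28 (SE 0.14), which did not reach an unadjusted p under 0.05. The members' median was −0.05, against 0.05.

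No member differed between the short and the long arm at an adjusted p under 0.05 in limma, for the obese or the weight loss comparison (against 0% and 0.0072% of all promoters). Before adjustment 1 of 79 members had a p under 0.05 for obesity (Ndufb9, 1.27%, against 2.65% of all promoters) and 3 for weight loss (Ndufb10, Ndufa4l2 and Ndufc2, 3.8%, against 3.07%). The 4 pairs share no library, and 14 of the 77 members tested in all 4 were below their control in each (18.2%, against 13.9% of 11850 promoters), while 3 were above in each (3.9%, against 17.3%). By more than 0.5 in each pair, 5 were below (6.49%, against 2.17%), namely Atp5h, Cox4i1, Ndufa2, Ndufb8 and the second Atp5o record, which were named after their values were seen. The second Atp5o record in all 4 pairs and Cox4i1 in HC against CC_s passed the filter with the help of the control, where they are high, so the tally does not count as support. Each of the 5 had an SD within groups of 0.69 or more. Without HC replicate 3 and HHC replicate 3 the counts were 12 below (15.6%, against 12.6% of 11799 promoters), 3 above (3.9%, against 15.0%) and 1 below by more than 0.5 (1.3%, against 1.2%), which was Atp5h. Atp5h was at −1.62 in H, −0.56 in HH, −1.03 in HC and −1.39 in HHC. Its libraries overlapped with the control in HH and in HC, and its peak reached another promoter in 18 of 22 libraries. In HH it had 15.82, 17.56 and 15.35 against 15.97 and 17.63 in CC_l. The peak maximum lay 5068 to 5271 bp downstream of the start in C replicate 2, CC_l replicate 2 and HH replicate 2. It did so too in CC_s replicates 2 and 3 and both CCC libraries, and all of these had 17.26 to 18.08. In the others it lay within 122 bp of the start. The part of this in the differences was not tested.

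Genes that build or control the complexes gave few calls as well. All 43 assembly factor genes had a promoter peak in at least 1 library and 38 in all 22. In H against C, 0 of 43 were called (against 2.35% of all promoters), with 5 higher (11.6%, against 12.9%) and 5 lower (11.6%, against 8.37%) at an unadjusted p under 0.05 in limma and a median of −0.00. Of 17 regulators of mitochondrial genes, 13 were open in all libraries. Of the 17, 1 was called (5.88%, against 2.35%), Tfb2m, a mitochondrial transcription factor, with a mean of 16.92 ± 0.29 in H against 18.56 ± 0.48 in C (SD, n = 3 each, −1.64, adjusted p = 0.0483), named after its values were seen. Over both durations it was at −1.30 (adjusted p = 0.0843). Ppargc1a, the coactivator of mitochondrial biogenesis, was at −0.37 in H against C (adjusted p = 0.529) and −0.47 over both durations (adjusted p = 0.298). Esrra was at −0.11 (adjusted p = 0.849), Nrf1 at −0.33 (adjusted p = 0.619), Gabpa, which has the same promoter values as Atp5j, at 0.08 (adjusted p = 0.856) and Tfam at 0.31 (adjusted p = 0.414) in H against C. The carriers and coupled enzymes, such as those of ubiquinone synthesis, had 0 of 20 called in limma (against 2.35%), with 3 higher (15.0%, against 12.9%) and 1 lower (5.0%, against 8.37%) at an unadjusted p under 0.05 and a median of 0.09. Adipoq, which drives the Cre, was at 21.52 ± 0.31 in C and 21.86 ± 0.48 in H (SD, n = 3 each), and at 21.98 ± 0.43 in CC_l (n = 2) and 20.72 ± 2.19 in HH (n = 3).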

How the data were processed

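ATAC–seq of adipocyte nuclei was analysed in 22 libraries, each described by the labels as an individual biological replicate. Per the study's methods and the submitters' processing notes, reads were trimmed (Trim Galore 0.6.6), aligned to mm10 (Bowtie2 2.4.4), handled with SAMtools 1.13 and bedtools 2.30, and peaks were called per library with SEACR 1.3 at a threshold of 0.01. The deposited files hold, for each peak, its position, the total signal (coverage summed over the peak) and the maximum signal. They hold no read counts, so the depth of each library is unknown and a count test could not be run. No scaling between libraries is given in the sources used here.

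For each of 20807 autosomal protein-coding genes the total signal of peaks within 2000 bp of a basic-transcript start was summed, ranked within the library and mapped to common log2 values, down to a floor. Peaks far wider than a promoter contribute whole. Pairs of groups were fitted with limma 3.58.1 (R 4.3.3, empirical Bayes with trend) on the libraries compared, and averages over durations and their differences on all 22. P-values were adjusted (Benjamini–Hochberg) over all promoters that left the floor in a number of libraries no lower than the size of the smaller group, so a member that is high in 1 group can pass through it. Tables were made with Python 3.11.15, pandas 2.3.3 and numpy 2.4.6, and plots with matplotlib 3.10.9. The fits were checked on simulated data.

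The members, gene lists and tests were chosen with earlier results of these data known. Named with values were called members or, where none was called, the 3 of smallest p in each direction, members lacking a peak somewhere, restricted isoforms with their common counterparts, core subunits, and the 3 highest and lowest promoters. Lists of assembly factors, regulators, carriers and markers of 5 cell types were counted, with no set test. Alternatives were the maximum signal, a window of 500 bp, the gene's 5′ end, median centring, the 30000 strongest peaks, no filter, no trend, 1 fit of all groups, a replicate block, the threshold of the study (unadjusted p under 0.01 with a log2 difference above 1) and leaving out each library.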

Additional observations from a re-analysis of the deposited data

Results flagged for a closer look

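At Ndufb9, an accessory subunit of complex I, the libraries were ordered in opposite ways after 12 and after 25 weeks, but the test of this difference did not pass. All 3 H libraries (16.31, 16.28 and 16.22) lay below all 3 C libraries (17.03, 17.47 and 17.64), whereas all 3 HH libraries (16.65, 16.78 and 16.68) lay above both CC_l libraries (16.36 and 16.11). The difference of the differences was −1.57 (SE 0.35), with an adjusted p of 0.811 in limma over all promoters tested. Duration of the diet, age and series of libraries cannot be told apart in it, and the peak is shared with Tatdn1.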

How the results depend on the processing

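The call of Uqcrfs1 over both durations held under every alternative except 2, the maximum signal, which called 0 members there, and the threshold of the study, which its size did not reach and which Cox4i2 passed instead (against 2.77% of all promoters), and its difference ran from −0.95 to −0.84 when each library was left out. In H against C, where 2 members were called, against 2.35% of all promoters, the count was 1 with the maximum signal (Ndufb7, against 2.32%), 0 with a window of 500 bp (1.61%), 0 with the gene's 5′ end (2.08%), 1 with median centring (1.65%) and 1 without the filter (1.8%, Cox4i2 in both), and 1 to 3 when a library was left out (0.429 to 2.12%). Leaving out C replicate 1 added Atp5h, and leaving out any other library of the pair lost Ndufb9. With the replicate block it was 0, where calls over all promoters went to 0.217%. The replicate numbers were not taken to pair libraries, because correlations of deviations between same-numbered libraries ran from −0.272 to 0.173. With the 30000 strongest peaks and with 1 fit of all groups the count stayed at 2, with Uqcrfs1 called in place of Cox4i2, which was not among the promoters tested with the window of 500 bp or the gene's 5′ end. The members' median was −0.10 in H against C and −0.062 over both durations with the maximum signal, against −0.16 and −0.17. In HC against CC_s leaving out 1 library gave 0 to 1 calls (Ndufc2, without CC_s replicate 1, where calls over all promoters went from 0.0644% to 0.82%), and over both durations of HFD 1 to 2 (Atp5g2 added without HH replicate 1, against 2.25%). The study's threshold gave 1 call in HHC against CCC, the second Atp5o record (against 0.845% of all promoters), and median centring gave 1 after weight loss over both durations, Atp5g2 (against 0.375%, and 0.151% without centring). Without HC replicate 3 and HHC replicate 3, an alternative chosen after seeing the data, the count over both durations of HFD was 2 of 79 (2.53%), with Cox4i2 added, while calls over all promoters went from 2.28% to 5.04%. The members' medians in the weight loss pairs lay near 0 and changed sign: 0.01 in HC against CC_s became −0.03 with the maximum signal and −0.06 with median centring (−0.06 to 0.04 leaving out 1 library), and −0.00 in HHC against CCC became 0.019 with a window of 500 bp (−0.12 to 0.02 leaving out 1 library). The cause of these changes was not tested. With 2 or 3 libraries a group and no read depth, a member that was not called may still differ, by an amount anywhere in its interval.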
